A study of Mus musculus with 24 samples.

Results

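The genes described here are 38 genes of the cell cycle and of DNA replication, read in bone marrow-derived basophils of wild-type mice and of mice without tristetraprolin (TTP, the product of Zfp36). They were chosen by name, from a list of 38 symbols, and every symbol had 1 row among the 15737 genes of the deposited table. All 38 passed the filter on low counts that left 12936 genes to be tested. By role, 6 are regulators of the G1 phase, 18 act at the passage from G1 into S phase and in DNA replication, and 14 act in G2 phase and mitosis.

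The study followed RNA after a short stimulus, with 2 genotypes (WT and TTP-KO) and 4 times, which makes 8 groups of 3 libraries and 24 libraries in all. In all groups, per the labels' protocols, bone marrow was cultured for 7 days with IL-3 at 0.3 ng/mL, and IgE against the hapten TNP at 1 µg/mL and the uridine analogue 4-thiouridine (s4U) at 150 µM were present from day 6. Cells with surface CD49b were enriched on magnetic beads, received TNP-coupled ovalbumin (TNP-OVA) at 10 ng/mL with s4U for 1.5 h, and were washed. They were collected 0, 1, 2 or 4 h later, a chase with neither antigen nor s4U, and their RNA was alkylated with 10 mM iodoacetamide before 3' end sequencing. The labels give no age of the animals, and no group was left without antigen or without s4U. Whether libraries A, B and C of a group stem from different mice or cultures is not given, so the p-values rest on a spread between libraries that may be only technical.

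A cell leaves G1 when cyclin D, bound to CDK4 or CDK6, phosphorylates the retinoblastoma protein and so frees E2F factors, which switch on cyclin E, the MCM helicase subunits and the enzymes that make nucleotides. The inhibitors p21 and p27 hold back these kinases. Cyclin A and cyclin B with CDK1 then drive G2 and mitosis, and CDC20 with the anaphase-promoting complex ends it. Mature basophils are short-lived granulocytes that divide little, whereas their bone marrow precursors divide in response to IL-3.

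The promoters of 6 members whose levels moved in the chase are shown first, because the replication and mitosis genes differ in the motifs they carry. The sequences are RefSeq's on GRCm38.p6, from 250 bases before to 50 bases after the start of transcription, written 5′ to 3′ on the strand of the gene. Capitals mark the E2F-type words TTTGGCGC and TTTCCCGC, the cell cycle homology word TTTGAA and the CCAAT box, each on either strand.
Mcm6, chr1:128359656-128359955, minus strand: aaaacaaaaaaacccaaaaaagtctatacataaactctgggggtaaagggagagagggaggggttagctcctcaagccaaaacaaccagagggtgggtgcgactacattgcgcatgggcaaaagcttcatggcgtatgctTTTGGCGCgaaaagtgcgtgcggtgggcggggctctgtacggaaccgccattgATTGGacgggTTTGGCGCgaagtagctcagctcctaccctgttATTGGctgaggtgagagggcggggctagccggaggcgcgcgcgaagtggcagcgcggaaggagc
Pcna, chr2:132253131-132253430, minus strand: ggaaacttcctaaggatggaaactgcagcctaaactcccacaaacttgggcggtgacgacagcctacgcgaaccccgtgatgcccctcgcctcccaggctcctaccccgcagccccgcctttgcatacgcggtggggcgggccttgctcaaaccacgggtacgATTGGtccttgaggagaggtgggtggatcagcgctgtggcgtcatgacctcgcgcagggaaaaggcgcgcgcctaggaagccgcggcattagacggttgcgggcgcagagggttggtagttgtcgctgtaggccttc
Cdk2, chr10:128705002-128705301, minus strand: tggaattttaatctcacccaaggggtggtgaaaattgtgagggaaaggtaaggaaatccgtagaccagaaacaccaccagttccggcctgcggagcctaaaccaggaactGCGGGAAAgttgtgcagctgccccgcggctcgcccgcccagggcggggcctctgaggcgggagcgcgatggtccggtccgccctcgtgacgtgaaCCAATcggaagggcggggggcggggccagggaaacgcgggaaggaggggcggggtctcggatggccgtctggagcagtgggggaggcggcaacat
Cdk1, chr10:69352863-69353162, minus strand: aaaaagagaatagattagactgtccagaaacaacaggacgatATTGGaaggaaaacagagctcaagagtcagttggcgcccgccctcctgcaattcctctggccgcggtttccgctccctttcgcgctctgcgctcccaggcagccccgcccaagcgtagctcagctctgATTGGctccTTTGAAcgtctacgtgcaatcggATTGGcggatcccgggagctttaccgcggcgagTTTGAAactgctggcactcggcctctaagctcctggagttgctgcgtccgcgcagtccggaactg
Cdc20, chr4:118437294-118437593, minus strand: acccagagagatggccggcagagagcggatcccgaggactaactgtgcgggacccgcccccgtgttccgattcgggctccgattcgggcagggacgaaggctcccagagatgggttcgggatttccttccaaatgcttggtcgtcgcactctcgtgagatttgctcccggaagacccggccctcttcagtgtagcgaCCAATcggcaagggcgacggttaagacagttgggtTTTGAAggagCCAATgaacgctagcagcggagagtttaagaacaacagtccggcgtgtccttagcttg
Plk1, chr7:122159185-122159484, plus strand: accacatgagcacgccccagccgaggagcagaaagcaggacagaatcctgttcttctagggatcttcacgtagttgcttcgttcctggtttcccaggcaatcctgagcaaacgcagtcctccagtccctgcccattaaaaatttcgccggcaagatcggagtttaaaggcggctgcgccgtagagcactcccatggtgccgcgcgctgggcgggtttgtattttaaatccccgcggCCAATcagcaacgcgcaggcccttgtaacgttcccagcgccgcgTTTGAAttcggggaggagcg
Mcm6, a subunit of the replicative helicase, carries TTTGGCGC at 2 places, which begin 110 and 47 bases before the start. Cdk1, Cdc20 and Plk1 carry TTTGAA and CCAAT and neither of the 2 E2F-type words searched for. Related words, such as TTTCGCGC in the Cdk1 window, were not searched for and are not marked. Pcna holds none of the E2F-type words, which says only that these letters are not in this window. Of the 38 members, 32 had an entry in the promoter table; Gins2, Mcm4, Ccne2, Ccnd2, Aurkb and Ccna2 did not. At least 1 of these 2 E2F-type words stood in 7 of 15 replication genes, in 0 of 12 mitosis genes and in 0 of 5 G1 regulators. The share was 3.4% of the 10039 tested genes in that table. The pair of TTTGAA and CCAAT stood in 9 of 12 mitosis genes and in 1 of 15 replication genes, against 7.6% of the tested genes. TTTGAA alone stood in 15.0% of the tested genes and CCAAT alone in 43.5%. No match of one motif overlapped a match of another in these windows. A match is a description of the letters and not a measured site.

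Since TTP binds AU-rich stretches of 3' untranslated regions (3' UTRs), the nonamer TTATTTATT, its textbook binding word, was looked for on the sense strand of the longest annotated 3' UTR of each gene (GENCODE M21, GRCm38). Of 38 members, 6 hold it: Birc5, Ccnb1, Ccne2, Cdk6, E2f1 and Hmgb2. This is 15.8% of the members, beside 8.2% of the 12818 tested genes with an annotated 3' UTR. The shorter word TATTTAT, which every nonamer contains, stands in 13 members (34.2%) and in 30.5% of the tested genes. A site from each of 4 of the 6 is shown, with the nonamer in capitals, because their annotated 3' UTRs hold the word that the missing protein is known to bind. Whether the RNA in these cells reaches to that word was not tested.
Hmgb2, chr8:57515565-57515593, plus strand: tttattttatTTATTTATTttgagatggt
Ccnb1, chr13:100779236-100779264, minus strand: ttttatgtaaTTATTTATTtgttcttaat
E2f1, chr2:154559899-154559927, minus strand: cccaagcagtTTATTTATTgggaaaggga
Birc5, chr11:117853581-117853609, plus strand: gcattcttttTTATTTATTtatttatttt
Ccnd2, Ccnd3 and Cdkn1a, the 3 members that passed edgeR's test between the genotypes below, hold neither word in 3' UTRs of 5173, 915 and 1334 bases.

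Libraries held 8839260 to 25372890 reads. Levels are given in CPM, a gene's reads relative to all reads of its library, scaled between libraries with edgeR's TMM method. Because the kit reads 3' ends, levels are compared between groups and not between genes. Zfp36 reads stood at 158 to 210 CPM in the TTP-KO libraries at 0 h, below the 219 to 269 of wild type. They stood at 36.0 to 58.5 against 104 to 147 at 1 h, 27.1 to 51.1 against 73.3 to 78.9 at 2 h, and 22.4 to 62.1 against 58.4 to 78.2 at 4 h, where the ranges overlapped. The labels do not say which stretch of Zfp36 was deleted, so these 3' reads do not check the genotype. The summed level of 11 basophil markers was 30176 to 48584 CPM in wild type and 32606 to 51310 in TTP-KO, and none of the 11 was at 0 in every library. That of 13 macrophage markers was 568 to 962 in wild type and 1201 to 2270 in TTP-KO. For 5 mast cell markers the sums were 173 to 293 and 121 to 166, and for 8 progenitor markers 152 to 253 and 122 to 243. In bulk RNA, fewer cells of a type and less RNA per cell cannot be told apart.

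Between the genotypes, few of the 38 genes differed by edgeR's test, and the ones that did were G1 regulators. A gene was counted as changed where edgeR's quasi-likelihood test, fitted on all 24 libraries and adjusted by the Benjamini-Hochberg method over the 12936 genes, gave an adjusted p under 0.05. At 0 h, right after antigen, 2 of 38 members were lower in TTP-KO, the cyclins Ccnd2 and Ccnd3, where 0.526% of all tested genes changed. At 1 h, Ccnd3 was lower and Cdkn1a higher, 2 of 38 against 0.502% of all genes. At 2 h and at 4 h, 0 of 38 members passed edgeR's test, against 0.518% and 1.82% of all genes. At each of these times 2 members had an unadjusted p under 0.05. DESeq2 called 1 member at 2 h, the mitosis gene Birc5 (-0.90, adjusted p = 0.0396), and 0 at 4 h. In the mean of the genotype difference over the 4 times, Ccnd2 and Ccnd3 were lower, 2 of 38, against 3.43% of all genes. None of the 18 replication genes and none of the 14 mitosis genes passed in any of these 5 edgeR comparisons. The genes that passed had median levels of 2336 (Ccnd2), 733 (Ccnd3) and 1026 CPM (Cdkn1a). Their median coefficients of variation within groups were 7.05%, 4.8% and 4.1%. The highest median level was 159 CPM (Pcna) among the replication genes and 628 CPM (Hmgb2) among the mitosis genes. The part of read depth in this split by role was not tested. The median difference over the 38 members was 0.08 (log2, TTP-KO minus WT) at 0 h and -0.24 at 2 h, where the median of all genes was 0.00.

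Cyclin D3 (Ccnd3, ENSMUSG00000034165) is one of the 3 D-type cyclins that activate CDK4 and CDK6. At 0 h its level was 646, 631 and 619 CPM in the wild-type libraries and 408, 446 and 418 in TTP-KO. At 1 h it was 846, 605 and 636 against 426, 517 and 529. At 2 h it was 810, 1095 and 837 against 786, 713 and 754, and at 4 h 1136, 1164 and 1158 against 938, 994 and 970. At each of the 4 times every TTP-KO library lay below every wild-type library. The log2 difference was -0.58 ± 0.12 (SE, n = 3 libraries a group; edgeR adjusted p = 0.00389) at 0 h and -0.50 ± 0.12 after 1 h of chase (edgeR adjusted p = 0.0213). At the later times the test did not pass: the difference was -0.28 ± 0.12 at 2 h and -0.25 ± 0.12 at 4 h, with edgeR adjusted p of 0.515 and 0.379. In the mean over the 4 times it was -0.40 ± 0.06 (edgeR adjusted p = 2.54e-06). The 1 h call was lost without wild-type library A, the highest of its group (-0.34, adjusted p of 0.495), and without TTP-KO library A (-0.41, adjusted p of 0.271). It was also lost when only the 1 h groups entered the fit (-0.50, adjusted p of 0.183).

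Cyclin D2 (Ccnd2, ENSMUSG00000000184), the D-type cyclin that growth factor signals raise in blood cells, was lower in TTP-KO at the start of the chase. Its level at 0 h was 2267, 2184 and 2093 CPM in wild type and 1565, 1691 and 1552 in TTP-KO, with no overlap. At 1 h the libraries read 3031, 2964 and 3351 against 2479, 2756 and 2988, and at 2 h 2478, 2830 and 2846 against 2594, 2796 and 2405. By 4 h they read 1716, 1633 and 1588 against 1630, 1381 and 1352. From 1 h on the ranges of the genotypes overlapped. The difference was -0.44 ± 0.09 (log2, SE; edgeR adjusted p = 0.00516) at 0 h, and -0.18, -0.07 and -0.18 at the later times, with adjusted p from 0.449 to 1.0. Without TTP-KO library C of 0 h it was -0.42 with an adjusted p of 0.0574.

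p21 (Cdkn1a, ENSMUSG00000023067), the inhibitor of cyclin-dependent kinases that p53 induces, was higher in TTP-KO at 1 h. The wild-type libraries then read 760, 741 and 713 CPM and the TTP-KO libraries 978, 1031 and 1021. At 0 h they read 1642, 1537 and 1643 against 1734, 1887 and 1783, and at 2 h 999, 1044 and 1078 against 1125, 1108 and 1215. At 4 h the order was mixed, with 880, 780 and 814 against 861, 638 and 699. At 0, 1 and 2 h each TTP-KO library lay above each wild-type library. Of the 4 times, edgeR's test passed at 1 h only, with a log2 difference of 0.45 ± 0.10 (edgeR adjusted p = 0.0116). It was 0.16 ± 0.10 at 0 h and 0.14 ± 0.10 at 2 h, with edgeR adjusted p of 0.764 and 0.786. In the mean over the 4 times, edgeR's test did not pass with all libraries, but DESeq2 called it higher in TTP-KO (0.16, adjusted p = 0.0029). Without TTP-KO library B of 4 h, edgeR's test of the mean also passed (0.17, adjusted p = 0.0492). When 1 library was left out the 1 h value was 0.43 to 0.45 in 4 cases where the call was lost: the adjusted p was 0.0777 and 0.0604 without TTP-KO library B or C, and 0.0579 and 0.115 without wild-type library B or C. The macrophage sum, 899 to 962 CPM in wild type and 2206 to 2270 in TTP-KO at 0 h, moved with the genotype in the same libraries. So did the mast cell sum, lower in TTP-KO, and the dendritic and B cell sum, at 137 to 200 and 222 to 357. Not every listed marker did. At 0 h the wild-type and TTP-KO means were 94.6 and 97.9 for the macrophage marker Adgre1, and 123 and 121 for Cd14. In the dendritic and B cell list Cd74 (89.7 and 159) and H2-Aa (82.8 and 156) differed. Ighm (10.2 and 9.71) did not, and the other genes of that list had means of at most 1.39. The part of these sums in the differences of Ccnd2, Ccnd3 and Cdkn1a was not tested.

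**Figure D1:**
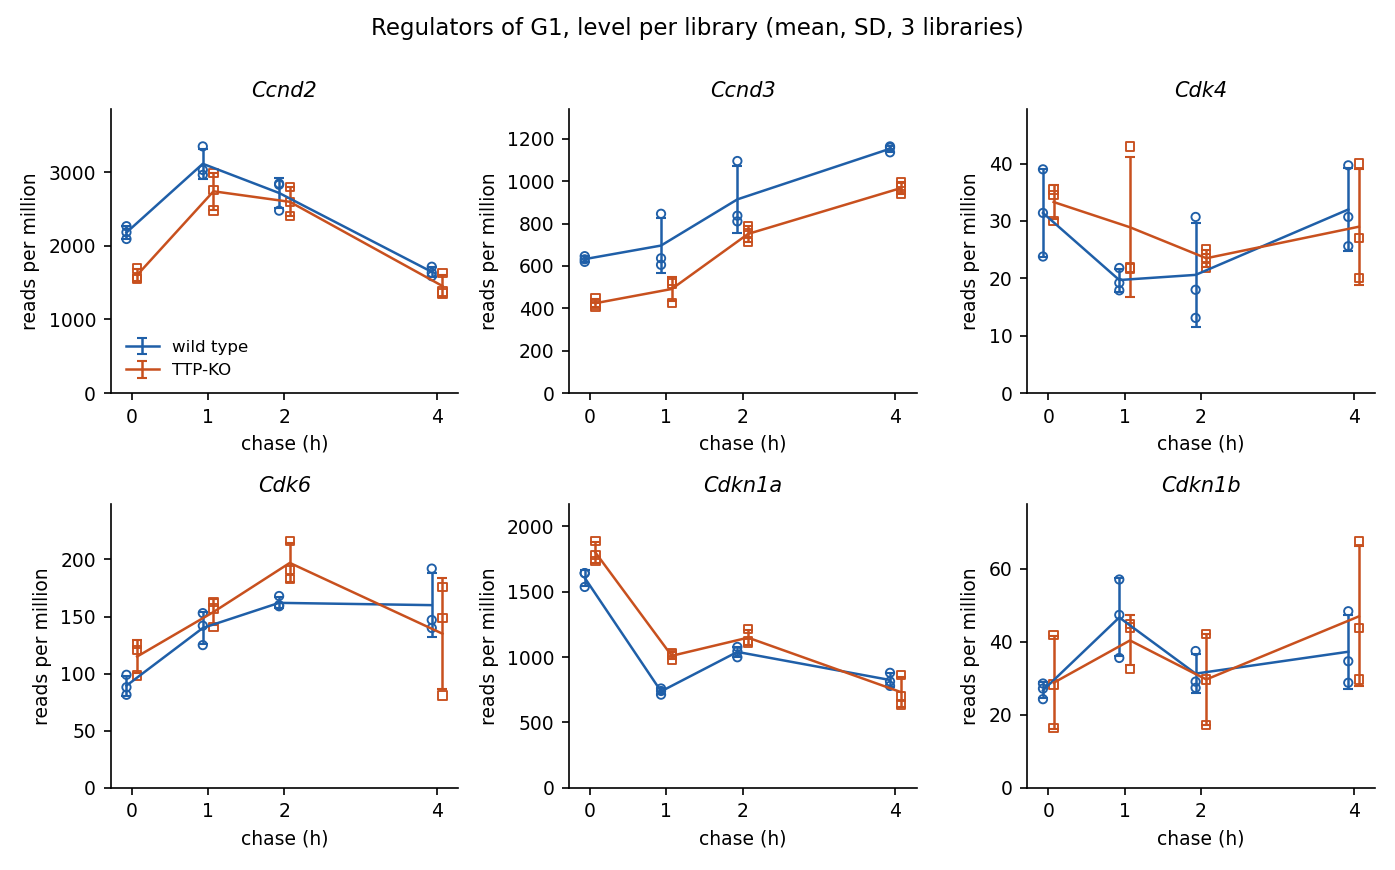
Level in CPM (vertical axis, from 0) of the 6 G1 regulators against hours of chase, with each library as a point (circles, wild type; squares, TTP-KO) and lines through group means with SD over 3 libraries. Ccnd3 rose in both genotypes with TTP-KO below wild type, Ccnd2 peaked at 1 h in wild type (mean 3115), and Cdkn1a fell most between 0 and 1 h.

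The remaining G1 regulators did not pass between the genotypes. CDK6 (Cdk6) stood at 99.0, 81.5 and 88.1 CPM in wild type and 98.4, 121 and 126 in TTP-KO at 0 h, and at 160, 159 and 168 against 183, 216 and 191 at 2 h. Its groups overlapped at 0 h and not at 2 h. The log2 difference was 0.36 ± 0.18 at 0 h and 0.28 ± 0.18 at 2 h, with edgeR adjusted p of 0.727 and 0.746. Its partner kinase CDK4 (Cdk4) read 31.4, 39.0 and 23.8 against 35.5, 30.0 and 34.5 at 0 h, and its groups overlapped at every time. p27 (Cdkn1b), an inhibitor linked to the resting state, read 28.6, 27.2 and 24.3 against 16.4, 41.9 and 28.3 at 0 h, and its groups also overlapped at every time. Cdk4 and Cdkn1b were read thinly, with a median coefficient of variation within groups of 23.4% and 25.0%, where Cdkn1a had 4.1% and Ccnd3 4.8%.

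**Figure D2:**
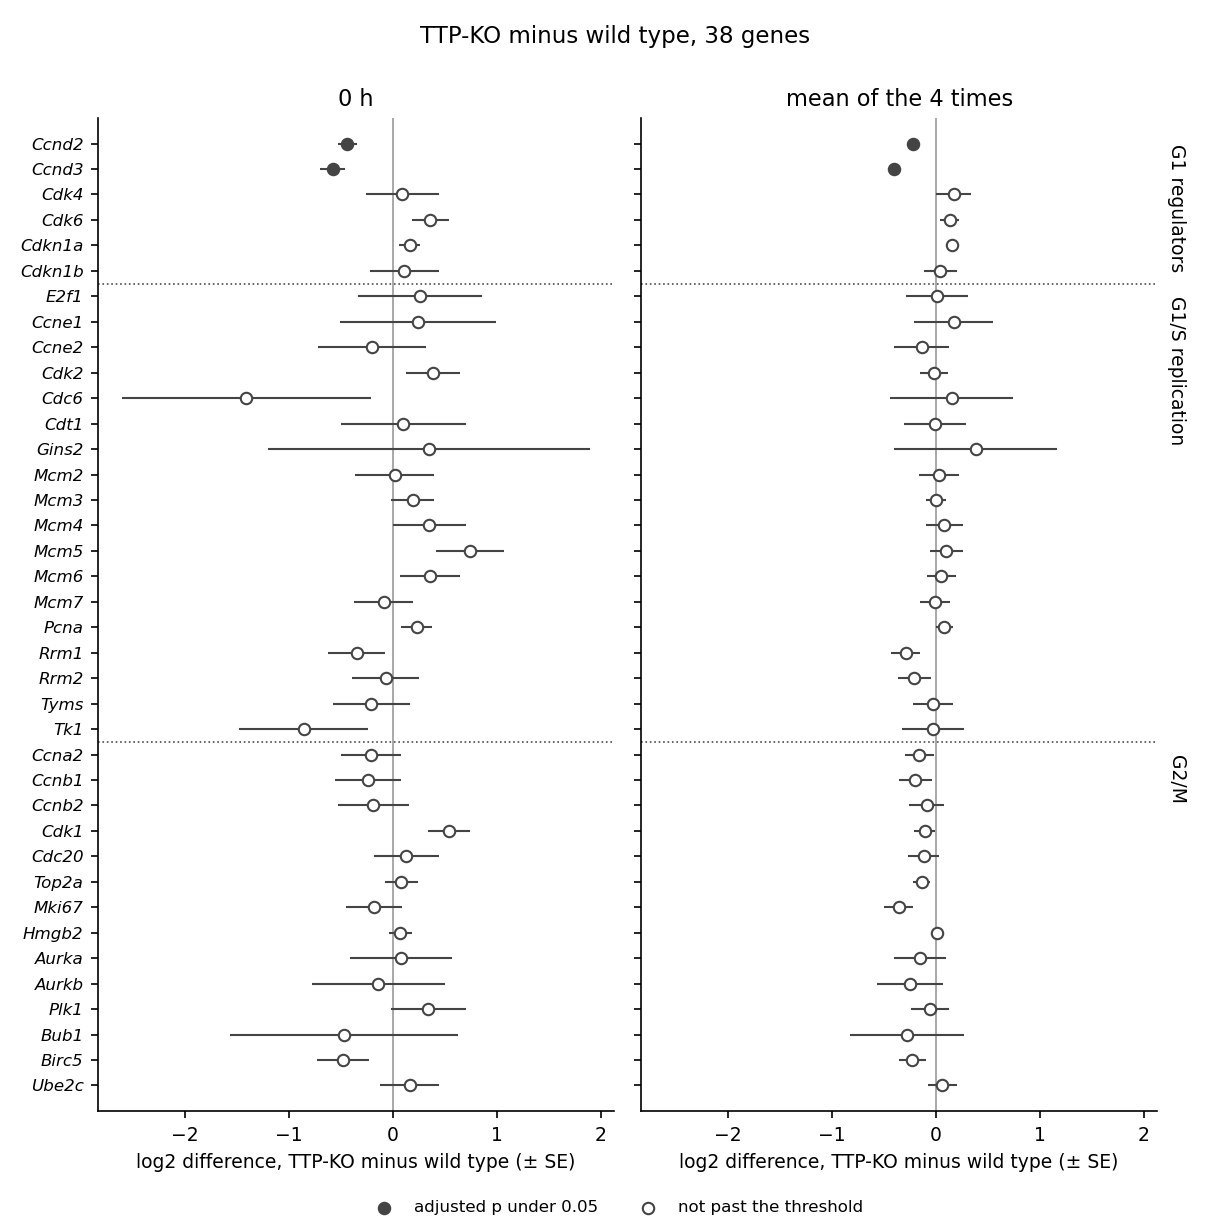
Difference between the genotypes (log2, TTP-KO minus wild type, ± SE) for each of the 38 genes at 0 h (left) and as the mean of the 4 times (right), ordered by role, with filled points where the adjusted p was under 0.05. Only Ccnd2 and Ccnd3 are filled, and the other 36 genes have open points on both sides of 0.

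Over the chase, members of all 3 roles changed. In wild type, 3 of 38 members had changed by 1 h (2.33% of all tested genes), 6 by 2 h (10.0% of all) and 10 by 4 h (16.7% of all). TTP-KO had 3 at 1 h (2.74% of all), 9 at 2 h (9.89% of all) and 7 at 4 h (18.1% of all). Of the 6 G1 regulators, 4 changed by 2 h in each genotype, whereas 1 of 18 replication genes and 1 of 14 mitosis genes did so in wild type and 2 and 3 in TTP-KO. At 4 h the count in wild type split into 4 of 6 G1 regulators, 3 of 18 replication genes and 3 of 14 mitosis genes, and in TTP-KO into 2, 3 and 2. At 4 h the 38 members had a median change of -0.16 in wild type and -0.22 in TTP-KO (log2), beside 0.06 and 0.08 for all genes. Summed levels of cell type markers moved over the same hours: from 0 to 4 h the mean of the basophil sum went from 46838 to 31181 CPM in wild type and from 46498 to 33247 in TTP-KO, and that of the macrophage sum from 928 to 583 and from 2244 to 1355. The neutrophil sum went from 4416 to 2565 and from 3841 to 3393, and the erythroid and megakaryocyte sum from 4149 to 2809 and from 3894 to 2774. The part of these in the members' changes was not tested.

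These changes are relative to the other genes of a library. Scaled by library totals alone, without TMM, the median of all genes itself rose by 0.26 in wild type and 0.23 in TTP-KO at 2 h, and by 0.38 and 0.45 at 4 h (log2). Of the wild-type members at 4 h, 5 rose and 5 fell with TMM and 8 rose and 2 fell with library totals; in TTP-KO at 4 h the split was 1 and 6 against 8 and 4. At 2 h it was 3 and 3 against 6 and 2 in wild type, and 3 and 6 against 3 and 3 in TTP-KO, and at 1 h in TTP-KO it was 1 and 2 against 1 and 1. No change that passed with TMM had the opposite sign under any alternative.

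Cyclin D2 (Ccnd2) rose and fell again within the chase. From the 0 h values given above, its log2 change at 1 h was 0.51 ± 0.09 in wild type (edgeR adjusted p = 0.000227) and 0.77 ± 0.09 in TTP-KO (edgeR adjusted p = 6.04e-08). At 2 h the changes were 0.32 ± 0.09 and 0.70 ± 0.09, both past the threshold (edgeR adjusted p = 0.0174 and 1.67e-07). By 4 h the wild-type level was under its start, with -0.41 ± 0.09 (edgeR adjusted p = 0.000934), and that of TTP-KO was near it, with -0.14 ± 0.09 (edgeR adjusted p = 0.312). The wild-type fall at 4 h was -0.08 with an adjusted p of 0.571 under library totals. The wild-type rise at 2 h did not pass without wild-type library B or C of 0 h (adjusted p of 0.0583 and 0.10), or B or C of 2 h (0.0659 and 0.0924). The step down from 2 to 4 h, a comparison added after the data were seen, was -0.72 ± 0.09 in wild type and -0.84 ± 0.09 in TTP-KO and held in each alternative.

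Cyclin D3 (Ccnd3), by contrast, climbed to the end. In wild type its log2 change from 0 h was 0.14 ± 0.12 at 1 h, 0.53 ± 0.12 at 2 h and 0.87 ± 0.12 at 4 h (edgeR adjusted p = 0.712, 0.00114 and 1.1e-07). In TTP-KO it was 0.21 ± 0.12, 0.82 ± 0.12 and 1.19 ± 0.12 (edgeR adjusted p = 0.469, 7.92e-07 and 2.96e-11). At 4 h all 6 libraries, from 938 to 1164 CPM, lay above all libraries of their genotype at 0 h. The differences of the changes between genotypes were 0.29 ± 0.17 at 2 h and 0.32 ± 0.17 at 4 h, with edgeR adjusted p of 0.833 and 0.586. The level of TTP-KO at 4 h (mean 967, SD 28.3) was above the wild-type level at 0 h (mean 632, SD 13.5).

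p21 (Cdkn1a) fell by 1 h, recovered in part by 2 h in wild type, and fell again. Its log2 change at 1 h was -1.12 ± 0.10 in wild type and -0.83 ± 0.10 in TTP-KO (edgeR adjusted p = 2.21e-11 and 6.22e-08). From 1 to 2 h, a step added after the data were seen, it rose by 0.49 ± 0.10 in wild type (edgeR adjusted p = 0.00112). It was the 1 of 38 members that changed in this step, against 2.8% of all genes. That count was 3, with Birc5 and Ccnd3 added, with no filter on low counts and without TTP-KO library C of 1 h or A or B of 4 h, or wild-type library C of 2 h or A or B of 4 h. In TTP-KO the same step was 0.19 ± 0.10 (edgeR adjusted p = 0.437), and the member that changed there was Ccnd3, 1 of 38 against 3.01% of all genes. With library totals the TTP-KO step of p21 passed edgeR's test (0.35, adjusted p = 0.0295). The steps of the genotypes were not tested against each other. From 2 to 4 h p21 fell by 0.34 in wild type and 0.65 in TTP-KO. In that step 2 of 38 members changed in wild type (5.06% of all genes), Ccnd2 and Cdkn1a, and 4 of 38 in TTP-KO (6.39% of all genes), Ccnd2, Cdkn1a, Pcna and Ube2c. Without its 4 h libraries B and C the Pcna step in TTP-KO, -0.65 with all libraries, was -0.55 (adjusted p of 0.192). With library totals 1 rose and 1 fell in wild type in this step, where TMM gave 0 and 2, and 3 rose and 3 fell in TTP-KO, where TMM gave 1 and 3. The fall from 2 to 4 h in wild type did not pass in 8 of 31 alternatives, with adjusted p up to 0.155, and that in TTP-KO had an adjusted p of 0.0771 without its 4 h libraries B and C. Over the whole chase p21 changed by -0.96 ± 0.10 in wild type and -1.30 ± 0.10 in TTP-KO (edgeR adjusted p = 1.37e-10 and 1.44e-14), and no library at 4 h reached the lowest library at 0 h.

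CDK6 (Cdk6) rose in wild type and, at 2 h, in TTP-KO. Its wild-type libraries read 125, 142 and 153 CPM at 1 h and 140, 147 and 192 at 4 h, all above the 0 h libraries. The TTP-KO libraries read 163, 157 and 141 at 1 h and 176, 81.0 and 149 at 4 h, the last with the widest spread of any Cdk6 group. Its log2 change in wild type was 0.64 ± 0.18, 0.86 ± 0.18 and 0.83 ± 0.18 at 1, 2 and 4 h (edgeR adjusted p = 0.0457, 0.000766 and 0.000619). In TTP-KO it was 0.42 ± 0.18, 0.77 ± 0.18 and 0.23 ± 0.18, of which the 2 h change passed (edgeR adjusted p = 0.00252). The 4 h change in TTP-KO passed edgeR's test with library totals (0.60, adjusted p = 0.0124). It also passed without TTP-KO library B of 4 h, which read 81.0 (0.50, adjusted p = 0.0427). The 1 h change in wild type did not pass without wild-type library A, B or C of 0 h (adjusted p of 0.0501, 0.204 and 0.144) or B or C of 1 h (0.103 and 0.177).

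Neither Cdk4 nor Cdkn1b passed edgeR's test at any time with TMM scaling and all libraries. The rise of Cdkn1b at 4 h in TTP-KO passed with library totals (1.08, adjusted p = 0.0141), without TTP-KO library B of 0 h (1.07, adjusted p = 0.0389) and without A of 4 h (0.97, adjusted p = 0.0413). Cdk4 libraries read 17.9, 21.8 and 19.2 CPM at 1 h, 30.7, 18 and 13.1 at 2 h and 30.7, 39.7 and 25.6 at 4 h in wild type. In TTP-KO they read 43.0, 21.7 and 21.9, then 23.5, 21.9 and 25.0, then 27.0, 40.0 and 20.0. The ranges of 0 h and 4 h overlapped in both genotypes. Cdkn1b libraries read 35.6, 57.1 and 47.4 at 1 h, 27.4, 37.5 and 29.1 at 2 h and 28.8, 34.7 and 48.4 at 4 h in wild type. In TTP-KO they read 44.9, 43.9 and 32.6, then 17.3, 29.7 and 42.1, then 29.7, 67.6 and 43.8. Its largest rise (log2) was 0.81 ± 0.33 at 1 h in wild type (edgeR adjusted p = 0.266).

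Among the replication genes the sliding clamp PCNA (Pcna, ENSMUSG00000027342), which holds DNA polymerases on the template, had a lower mean at each later time in both genotypes. In wild type its libraries read 271, 252 and 263 CPM at 0 h, 161, 230 and 183 at 1 h, 138, 129 and 152 at 2 h and 113, 101 and 87.3 at 4 h. In TTP-KO they read 294, 326 and 305, then 248, 182 and 193, then 133, 156 and 150, then 101, 83.0 and 94.4. In each genotype no library of 1 h or later reached the 0 h range, and the genotypes overlapped from 1 h on. The log2 change at 4 h was -1.39 ± 0.15 in wild type and -1.73 ± 0.16 in TTP-KO (edgeR adjusted p = 7.73e-10 and 1.52e-12). At 2 h it was -0.91 ± 0.15 and -1.08 ± 0.15, and at 1 h -0.45 ± 0.15 and -0.57 ± 0.15, the last past the threshold (edgeR adjusted p = 0.0255). That 1 h call did not pass without TTP-KO library A, B or C of 0 h (adjusted p of 0.0512, 0.128 and 0.0729) or B or C of 1 h (0.194 and 0.149), or with library totals (0.0529). The changes of both genotypes at 2 h and 4 h passed in all alternatives.

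RRM2 (Rrm2), the small subunit of ribonucleotide reductase, fell between 0 and 4 h in both genotypes. Wild-type libraries read 34.5, 45.4 and 62.5 CPM at 0 h, 26.8, 37.7 and 29.7 at 1 h, 39.5, 61.4 and 40.4 at 2 h and 33.6, 14.6 and 23.9 at 4 h. TTP-KO libraries read 37.4, 56.5 and 41.8, then 33.5, 38.7 and 34.1, then 22.9, 25.0 and 50.2, then 18.1, 19 and 16.7. The 0 h and 4 h ranges did not overlap in either genotype. The log2 change was -0.98 ± 0.32 in wild type and -1.34 ± 0.32 in TTP-KO (edgeR adjusted p = 0.0255 and 0.00169). In wild type it did not pass without library C of 0 h (adjusted p of 0.198), or B or C of 4 h (0.182 and 0.0649), with only the groups compared (0.0552) or with library totals (0.147). The large subunit Rrm1 read 24 to 56.0 over all libraries and did not pass edgeR's test in any comparison.

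The MCM helicase genes, which unwind DNA at origins, did not move as 1 block. Mcm6 read 55.2, 55.3 and 40.3 CPM at 0 h and 36.0, 37.9 and 33.5 at 4 h in wild type, with 42.6, 46.5 and 35.6 at 1 h and 22.4, 38.7 and 43.3 at 2 h. In TTP-KO it read 72.6, 33.7 and 87.8, then 49.2, 35.8 and 52.8, then 43.4, 34.9 and 30.2, then 28.3, 22.6 and 32.4. No TTP-KO library of 4 h reached the 0 h range, whose lowest library, B, lay close to it. The TTP-KO change from 0 to 4 h was -1.22 ± 0.29 (edgeR adjusted p = 0.00161), and the wild-type change, -0.49 ± 0.29, did not pass (edgeR adjusted p = 0.27). Mcm5 read 34.1, 22.3 and 21.5 at 0 h, 42.3, 48.3 and 43.1 at 1 h, 21.8, 28.7 and 20.8 at 2 h and 68.4, 26.7 and 19.7 at 4 h in wild type. In TTP-KO it read 39.8, 54.7 and 35.8, then 55.4, 47.0 and 44.5, then 27.6, 28.4 and 20.3, then 28.8, 29.0 and 18.4. Its TTP-KO libraries at 0 h all lay above the wild-type ones, but the difference of 0.74 ± 0.33 had an edgeR adjusted p of 0.644. Mcm4 was lower at 2 h than at 0 h in TTP-KO, with a log2 change of -1.08 ± 0.36 (edgeR adjusted p = 0.043), from 47.8, 32.3 and 35.8 to 19.9, 12.2 and 22.8 CPM. This call did not pass without TTP-KO library A or C of 0 h (adjusted p of 0.207 and 0.0717) or A or B of 2 h (0.0949 and 0.23), or with library totals (0.116). Mcm2, Mcm3 and Mcm7 passed in none of these comparisons by edgeR with TMM scaling. With library totals the wild-type rises of Mcm3 passed, by 0.62 at 2 h and by 0.65 at 4 h (adjusted p of 0.0371 and 0.0183).

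CDK2 (Cdk2), the partner of cyclin E and cyclin A, rose in wild type, the 1 rise among the 18 replication genes that passed edgeR's test with TMM scaling. Tyms, thymidylate synthase, rose at 4 h in TTP-KO by DESeq2 (0.98, adjusted p = 0.0406), with library totals (1.31, adjusted p = 0.00796) and without TTP-KO library B of 0 h (1.21, adjusted p = 0.0446) or A of 4 h (1.19, adjusted p = 0.0274). For Cdk2 the wild-type libraries read 26.0, 34.7 and 30.8 CPM at 0 h, 35.8, 26.4 and 47.7 at 1 h, 39.6, 42.7 and 44.5 at 2 h and 55.6, 54.4 and 74.5 at 4 h. In TTP-KO they read 43.2, 40.1 and 36.3, then 32.7, 43.1 and 40.0, then 28.6, 41.7 and 33.3, then 46.8, 51.3 and 55.6. In both genotypes the 4 h range lay above the 0 h range. The log2 change of Cdk2 at 4 h was 1.01 ± 0.26 in wild type (edgeR adjusted p = 0.00368) and 0.36 ± 0.26 in TTP-KO (edgeR adjusted p = 0.359), which passed with library totals (0.73, adjusted p = 0.0323). The difference of these changes, -0.65 ± 0.37, did not pass (edgeR adjusted p = 0.658), so the genotypes are not shown to differ here.

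**Figure D3:**
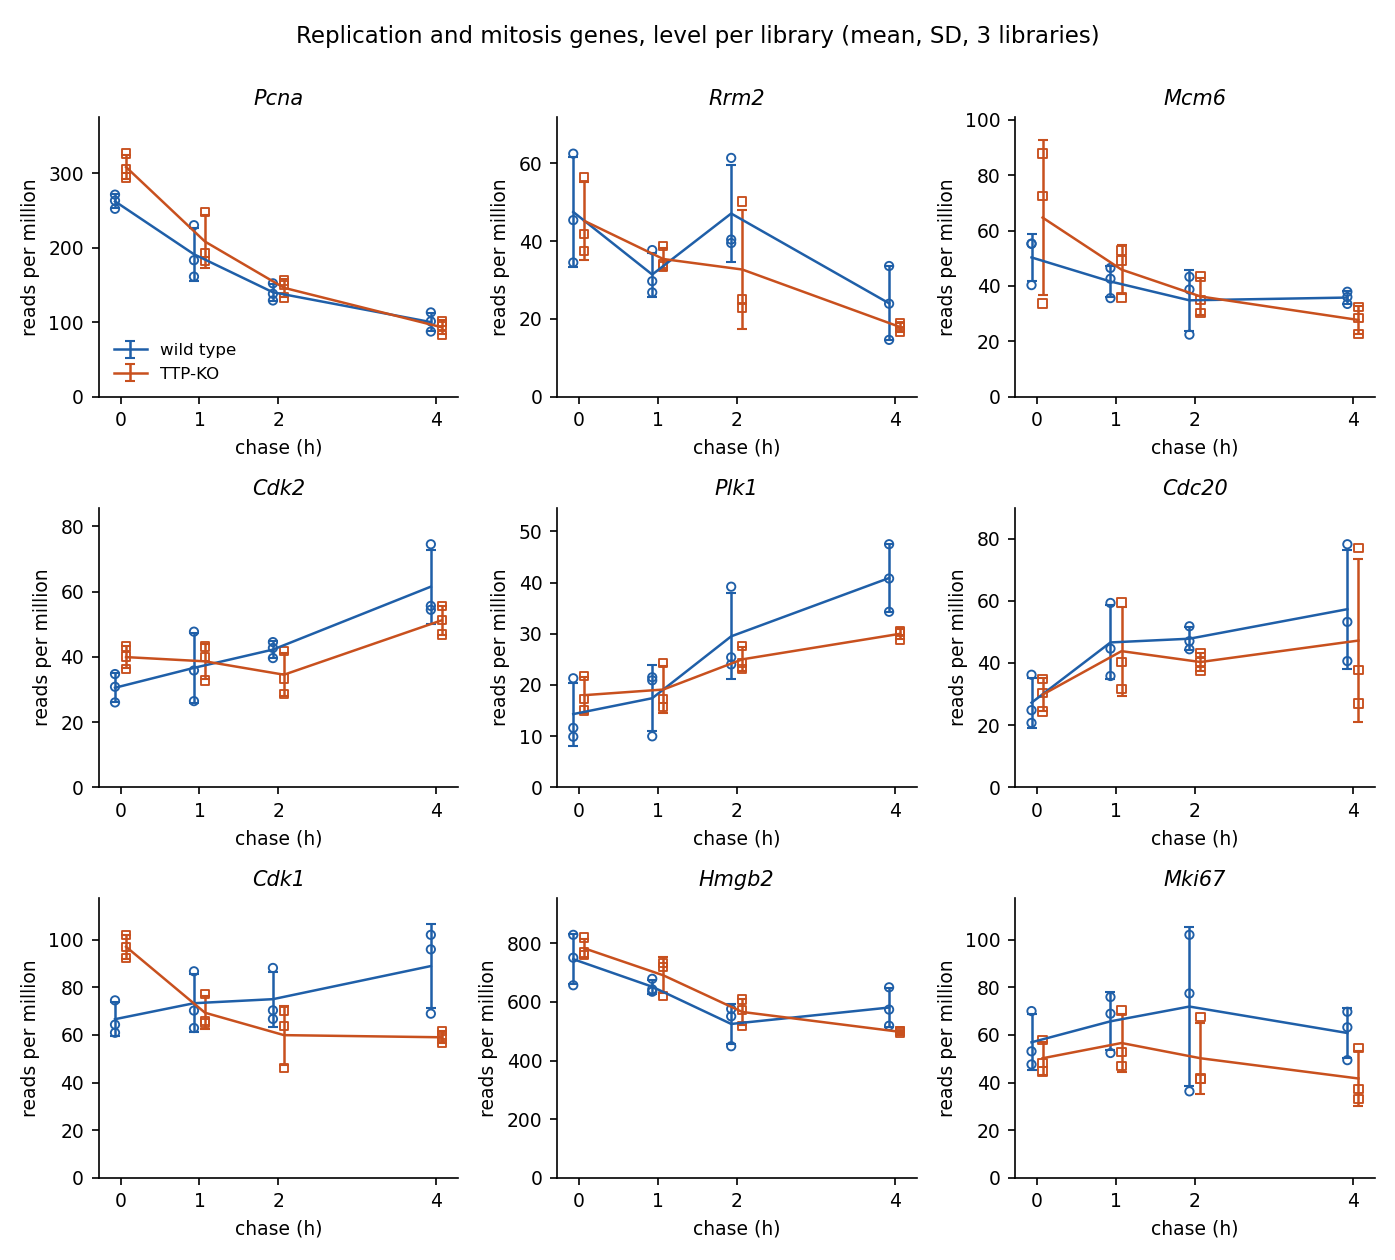
Level in CPM (vertical axes, from 0) of 9 replication and mitosis genes against hours of chase, with each library as a point and lines through group means with SD over 3 libraries. Pcna had a lower mean at each later time in both genotypes, Plk1 and Cdc20 were highest at 4 h in their means, and Cdk1 in TTP-KO went from a mean of 97 to 59.0 while the wild-type mean went from 66.6 to 88.9.

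Of the mitosis genes, PLK1 (Plk1), a kinase needed for spindle assembly, rose in wild type. Its libraries read 9.87, 11.6 and 21.3 CPM at 0 h, 9.95, 20.9 and 21.5 at 1 h, 39.2, 25.4 and 24 at 2 h and 34.3, 47.5 and 40.8 at 4 h. In TTP-KO they read 21.8, 17.2 and 15.0, then 17.2, 15.7 and 24.3, then 27.6, 24.3 and 23.1, then 28.9, 30.6 and 30.3. At 4 h no library of either genotype overlapped its 0 h range. The log2 change was 1.52 ± 0.37 in wild type (edgeR adjusted p = 0.00193) and 0.73 ± 0.36 in TTP-KO (edgeR adjusted p = 0.161). With library totals the TTP-KO change passed edgeR's test (1.10, adjusted p = 0.022). The difference of the changes between genotypes did not pass edgeR's main test, so the genotypes are not shown to differ here.

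CDC20 (Cdc20), which activates the anaphase-promoting complex, read 20.7, 36.2 and 24.8 CPM at 0 h in wild type, 59.3, 44.6 and 35.8 at 1 h, 51.8, 44.4 and 47.0 at 2 h and 40.6, 53.2 and 78.2 at 4 h. In TTP-KO it read 34.8, 24.4 and 30.4, then 40.3, 31.6 and 59.5, then 43.3, 37.4 and 40.3, then 76.9, 26.9 and 37.8. The wild-type ranges of 0 h and 4 h did not overlap and those of TTP-KO did. The log2 change at 4 h was 1.07 ± 0.31 in wild type (edgeR adjusted p = 0.0109) and 0.66 ± 0.31 in TTP-KO (edgeR adjusted p = 0.134). In edgeR the TTP-KO change passed with library totals (1.03, adjusted p = 0.0115). It also passed without TTP-KO library B of 4 h (0.95, adjusted p = 0.0299). The difference of the changes between genotypes did not pass edgeR's main test. The wild-type call did not pass without library A of 0 h (adjusted p of 0.0703) or library C of 4 h (0.113).

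The kinase CDK1 (Cdk1), which with cyclin B starts mitosis, went opposite ways in the group means. In wild type it read 64.3, 60.9 and 74.5 CPM at 0 h, 62.9, 70.2 and 86.7 at 1 h, 88.1, 66.7 and 70.3 at 2 h and 95.9, 102 and 68.9 at 4 h. In TTP-KO it read 102, 96.8 and 92.2, then 77.2, 65.7 and 65.0, then 69.9, 63.6 and 46.1, then 61.5, 59.1 and 56.5. TTP-KO lay wholly above wild type at 0 h and wholly below it at 4 h. Its log2 change at 4 h was -0.72 ± 0.20 in TTP-KO (edgeR adjusted p = 0.0079) and 0.42 ± 0.20 in wild type (edgeR adjusted p = 0.166). The wild-type rise passed edgeR's test with library totals (0.74, adjusted p = 0.00613), so which genotype passed depended on the scaling. The TTP-KO call had an adjusted p of 0.185 without the 4 h libraries B and C, the smallest of the series, and 0.221 with library totals. At 2 h the TTP-KO change was -0.70 ± 0.20 (edgeR adjusted p = 0.0173), which did not pass without TTP-KO library A of 0 h (0.0713), library C of 2 h (0.165) or with library totals (0.121).

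The difference of the 0 to 4 h changes of Cdk1 between the genotypes, tested as an interaction, was -1.14 ± 0.29 with an edgeR adjusted p of 0.0798, the smallest of any member. DESeq2 gave -1.10 with an adjusted p of 0.00498, and edgeR gave 0.0446 with no filter on low counts and 0.0424 without wild-type library C of 4 h. In edgeR's main test 0 of 38 members passed this interaction at 1 h, 2 h or 4 h, against 0.0618%, 0.0773% and 0.193% of all genes. At an unadjusted p under 0.05, 2, 2 and 6 members passed, and DESeq2 called 0, 0 and 1.

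HMGB2 (Hmgb2), a chromatin protein abundant in dividing cells, fell in both genotypes. It read 657, 751 and 829 CPM at 0 h and 519, 574 and 650 at 4 h in wild type, and 769, 761 and 820 against 500, 500 and 494 in TTP-KO. The log2 change was -0.36 ± 0.11 in wild type (edgeR adjusted p = 0.0209) and -0.65 ± 0.11 in TTP-KO (edgeR adjusted p = 1.72e-05). The wild-type call did not pass without library B or C of 0 h (adjusted p of 0.0625 and 0.179), A or B of 4 h (0.146 and 0.066), or with library totals, where the change was -0.04. With library totals the TTP-KO change was -0.28 with an adjusted p of 0.0593. At 2 h the change was -0.51 ± 0.11 in wild type and -0.47 ± 0.11 in TTP-KO (edgeR adjusted p = 0.00149 and 0.00364), of which the first had an adjusted p of 0.0506 without wild-type library A of 2 h and neither passed with library totals (0.142 and 0.133). Ube2c, the ubiquitin carrier of the anaphase-promoting complex, was lower at 2 h in TTP-KO, with a log2 change of -1.22 ± 0.28 (edgeR adjusted p = 0.00186), from 113, 85.2 and 105 to 56.4, 20.8 and 52.8, and stood at 48.4, 101 and 91.7 at 4 h. Its step from 2 to 4 h was 0.89 ± 0.28 (edgeR adjusted p = 0.0447), with overlapping ranges, and 0.55 (adjusted p of 0.349) without TTP-KO library B of 2 h, 0.68 (0.222) without B of 4 h, and 0.77 (0.135) without C of 4 h. Without both B and C of 4 h it was 0.13, and DESeq2 gave an adjusted p of 0.0831.

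The common proliferation marker Ki-67 (Mki67) passed in no comparison by edgeR with all libraries. Its wild-type libraries read 70.0, 47.6 and 53.1 CPM at 0 h, 52.4, 68.9 and 75.9 at 1 h, 102, 36.3 and 77.4 at 2 h and 63.2, 49.4 and 69.7 at 4 h. Its TTP-KO libraries read 57.8, 48.2 and 44.6, then 52.8, 70.2 and 47.0, then 41.7, 41.5 and 67.6, then 54.6, 37.2 and 33.2. The genotypes overlapped at all 4 times, with a mean difference of -0.36 ± 0.14 (log2; edgeR adjusted p = 0.154), which passed without wild-type library B of 2 h (-0.44, adjusted p = 0.0283). Cyclin B1 (Ccnb1), whose annotated 3' UTR holds the TTP nonamer shown above, read 32.9, 26.6 and 32.3 at 0 h, 24.5, 34.1 and 25.6 at 1 h, 40.0, 25.7 and 33.1 at 2 h and 41.0, 39.9 and 37.3 at 4 h in wild type. In TTP-KO it read 21.9, 24.2 and 31.9, then 32.1, 31.3 and 17.1, then 31.4, 29.4 and 22.6, then 21.9, 49.9 and 28.6. Its genotypes overlapped at all 4 times, and its mean difference was -0.20 ± 0.16 (edgeR adjusted p = 0.718).

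Of the 6 members with the nonamer, 0 passed edgeR's test between genotypes at any time or in the mean, where 0.502% to 3.43% of all tested genes did, so a count of 0 among 6 is near the background. At an unadjusted p under 0.05 there was 1, Birc5 at 2 h. Birc5 encodes survivin, a subunit of the chromosomal passenger complex. It read 87.3, 96.6 and 64.7 CPM in wild type and 46.3, 39.0 and 48.1 in TTP-KO at 2 h, with no overlap. The difference was -0.90 ± 0.25 (edgeR adjusted p = 0.105), and the test passed in DESeq2, with no filter on low counts and without the 4 h TTP-KO libraries B and C. At 0 h it read 54.4, 100 and 101 against 62.9, 63.3 and 56.8, and at 4 h 42.5, 67.2 and 52.0 against 58.7, 89.6 and 77.0, with a difference of 0.48 ± 0.25 (edgeR adjusted p = 0.457). In wild type Birc5 fell from 0 to 1 h by DESeq2 (-0.86, adjusted p = 0.0305) and by edgeR with no filter on low counts (-0.86, adjusted p = 0.018). From 1 to 2 h, a step added after the data were seen, it rose by DESeq2 (0.83, adjusted p = 0.0379). Neither change passed edgeR's main test. Over the 6, the median difference of the mean over times was -0.06, and over the 32 without the nonamer it was -0.02.

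**Figure D4:**
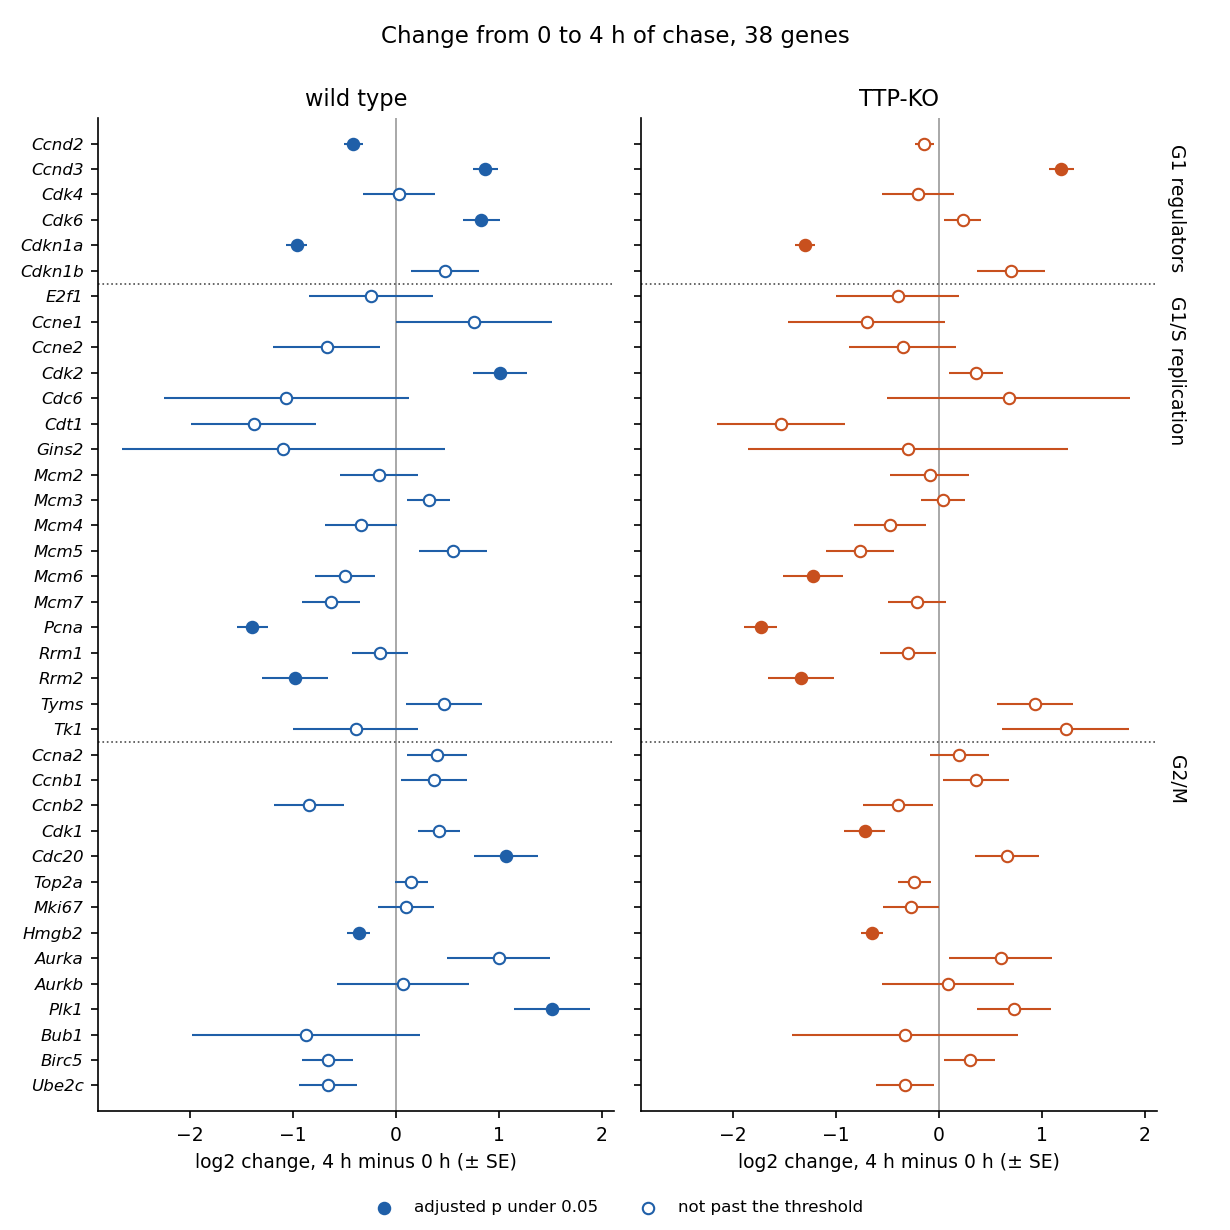
Change from 0 to 4 h (log2, 4 h minus 0 h, ± SE) for each of the 38 genes in wild type (left) and TTP-KO (right), ordered by role, with filled points where the adjusted p was under 0.05. Pcna is lowest among the filled points in both genotypes (-1.39 and -1.73), and the filled points to the right of 0 are 5 in wild type and 1 in TTP-KO.

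Across the 14 comparisons planned, 14 of the 38 members (36.8%) passed edgeR's test at least once, beside 27.9% of all 12936 genes, and 24 did not. DESeq2 called 4 of these 24 at least once: Birc5, Cdt1, Top2a and Tyms. The 14 are 4 of 6 G1 regulators, 5 of 18 replication genes and 5 of 14 mitosis genes. The members that did not pass edgeR's test include the licensing factors Cdc6 and Cdt1, E2f1, the E cyclins Ccne1 and Ccne2, Gins2, Tyms and Tk1, Ccna2 and Ccnb2, Top2a, and the kinases Aurka, Aurkb and Bub1. Among these, the fall of Ccnb2 at 4 h in wild type passed in edgeR with no filter on low counts (-0.84, adjusted p = 0.0465). It also passed with only the groups compared (-0.85, adjusted p = 0.0485). Its fall at 2 h in TTP-KO passed in the same alternatives (-0.95 in both, adjusted p of 0.0272 and 0.0251). That of Cdt1 at 4 h in TTP-KO passed in edgeR without TTP-KO library A of 4 h (-2.17, adjusted p = 0.0323). Many of the members that did not pass were read thinly. Gins2, a subunit of the replicative helicase complex, read 0.0 to 9.17 CPM with a median coefficient of variation of 88.9% within groups, and Cdc6 read 0.251 to 13.1 with 63.6%. Gins2 and Bub1 had 0 reads in at least 1 library. The limit that a count of 0 allows, 3 reads, comes to 0.111 to 0.29 CPM over the 24 libraries, for counting error only. Better read was Top2a, the topoisomerase that untangles chromosomes, at 103 to 178 CPM with a median coefficient of variation of 9.8%. It did not pass edgeR's test, but DESeq2 called its change at 1 h in TTP-KO (-0.49, adjusted p = 0.0102), and with library totals that at 4 h in wild type passed (0.47, adjusted p = 0.0298). Counts that are not whole can arise where reads are shared between near-identical genes. Hmgb2 had such a count in 100.0% of libraries, Mki67 in 91.7%, Ccnb1 in 83.3%, Ccnd2 and Ube2c in 75.0%, and Pcna and Ccnd3 in 70.8%, so the levels of these are uncertain to that extent.

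The balance between replication and mitosis genes overlapped between the genotypes at each time. The 18 replication genes summed to 765 ± 48.9 CPM in wild type and 851 ± 23.1 in TTP-KO at 0 h (mean ± SD, n = 3), and to 587 ± 70.3 and 548 ± 46.9 at 4 h. The 14 mitosis genes summed to 1390 ± 114 and 1432 ± 54.5 at 0 h and to 1264 ± 60.6 and 1106 ± 10.6 at 4 h. The log2 ratio of these sums was -0.86 ± 0.14 in wild type and -0.75 ± 0.09 in TTP-KO at 0 h, and -1.11 ± 0.24 and -1.02 ± 0.13 at 4 h. The replication sum at 0 h was 711 to 806 in wild type and 833 to 877 in TTP-KO, and the mitosis sum at 4 h was 1194 to 1306 and 1096 to 1117, so these ranges did not overlap, while those of the ratio did. No p is given for these sums, since the genes in them were picked by role. Pcna is the most abundant gene in the first sum and Hmgb2 in the second, and both fell. Without both, the ratio went from -0.36 ± 0.13 to -0.50 ± 0.20 in wild type and from -0.26 ± 0.09 to -0.42 ± 0.15 in TTP-KO, with overlapping ranges of 0 h and 4 h in both. Without Hmgb2 alone it went from 0.25 ± 0.12 to -0.22 ± 0.19 in wild type and from 0.39 ± 0.10 to -0.15 ± 0.14 in TTP-KO. There the ranges of 0 h and 4 h did not overlap in either genotype. With all genes in the sums, the ratio in TTP-KO was -0.84 to -0.65 at 0 h and -1.11 to -0.87 at 4 h, with no overlap. In wild type it was -0.98 to -0.70 and -1.27 to -0.84, which overlapped.

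**Figure D5:**
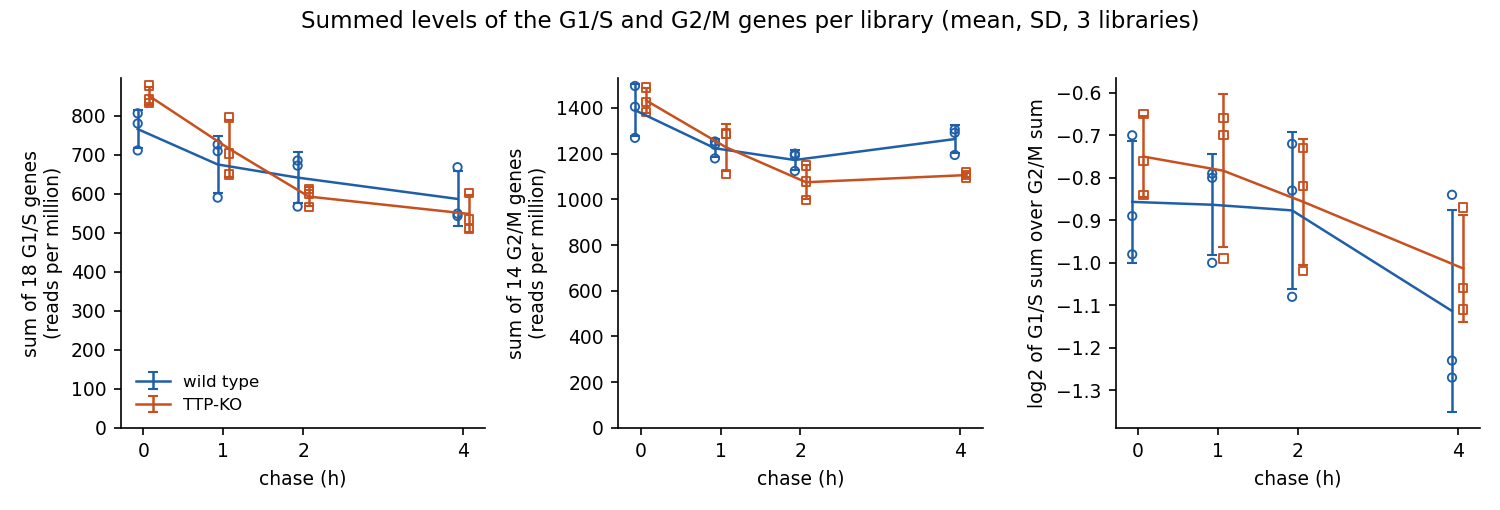
Sum of the 18 replication genes (left) and of the 14 mitosis genes (middle), in CPM, and the log2 ratio of the first to the second (right), against hours of chase, with each library as a point and lines through group means with SD over 3 libraries. Both sums have lower means at 4 h than at 0 h in each genotype, and the genotypes overlap in the ratio at each time.

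A wider list of 113 cell cycle genes, all tested, was read for the same comparisons. It holds 35 replication genes, 35 mitosis genes and 43 regulators, and it was drawn up with earlier results of these data known. Between genotypes, 1 of 113 passed at 0 h, 1 at 1 h, 0 at 2 h (edgeR, with 4 at an unadjusted p under 0.05), 2 at 4 h and 4 in the mean over times, all lower in TTP-KO. As shares these are 0.885%, 0.885%, 0%, 1.77% and 3.54%, near the 0.526%, 0.502%, 0.518%, 1.82% and 3.43% of all tested genes. They are Mxd1, a partner of MAX that opposes MYC, E2f2, an E2F factor, Cenpa, the centromeric histone, Rfc2, a clamp loader subunit, and Cdkn2a, the p16 and ARF gene. Mxd1 read 2199, 2203 and 2205 CPM in wild type and 1595, 1581 and 1628 in TTP-KO at 0 h, and 494, 498 and 489 against 453, 301 and 310 at 4 h (log2 difference -0.48 ± 0.11, edgeR adjusted p = 0.0114). E2f2 read 120, 127 and 141 against 67.1, 78.4 and 74.9 at 1 h, a difference of -0.82 ± 0.19 (edgeR adjusted p = 0.0262). Cdkn2a read 30.2, 39.8 and 32.0 against 12.6, 25.1 and 11 at 0 h, with no overlap, a log2 difference of -1.06 ± 0.27 (edgeR adjusted p = 0.0564), and -0.48 ± 0.13 in the mean over times (edgeR adjusted p = 0.0304).

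By 4 h of chase, 21 of the 113 (18.6%) had changed in wild type (8 rose, 13 fell) and 20 (17.7%) in TTP-KO (6 rose, 14 fell), near the 16.7% and 18.1% of all tested genes. Of these, 15 and 12 are among the 43 regulators (34.9% and 27.9%). For the list as a whole the median change at 4 h was 0.11 in wild type and -0.06 in TTP-KO (log2). Btg2, an antiproliferative gene that p53 induces, read 348, 413 and 335 CPM at 0 h and 68.8, 68.3 and 48.0 at 4 h in wild type, and 345, 372 and 350 against 51.9, 53.5 and 43.2 in TTP-KO. Its log2 change was -2.57 ± 0.18 and -2.84 ± 0.18 (edgeR adjusted p = 2.62e-16 and 1.04e-17). Mdm2, the p53 ubiquitin ligase, fell by 1.26 and 1.28 (log2; edgeR adjusted p = 1.28e-08 and 7.02e-09). Cdkn2a rose, by 1.53 ± 0.27 in wild type and 2.5 ± 0.28 in TTP-KO (edgeR adjusted p = 2.42e-05 and 1.01e-09). Of the 35 other replication genes, 3 (8.57%) changed by 4 h in each genotype, all upward. Lig1, the ligase that joins Okazaki fragments, was among them in both genotypes, from 103, 85.7 and 54.2 to 187, 142 and 156 in wild type (1.00 ± 0.20, edgeR adjusted p = 0.000153).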

How the data were processed

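The table deposited by the authors holds expected counts, that is estimated read counts per gene, of which 12.8% were not whole; they were rounded for tests. Per the submitters' processing notes, the build is GRCm39 and the tools include STAR 2.7.10a, cutadapt 3.5 and SAMtools, with no role or order given. Columns name genotype, time and a letter, so each column was tied to its group and not to 1 sample. The 144 other per-sample columns (conversion and new-to-total values) were not used. Counting strand is not given in the sources used here.

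Counts were fitted with edgeR 4.0.16 in R 4.3.3 (filterByExpr, TMM, 8 group means, quasi-likelihood F test, all 24 libraries), with Benjamini-Hochberg adjustment over 12936 genes, and with DESeq2 1.42.0 as an alternative. The SE is the size of the log2 change divided by the root of F. Scripts were tested on simulated counts. Alternatives were DESeq2's size factors in edgeR, library totals, no filter on low counts, only the groups compared, a block by letter and leaving out each library in turn.

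The members and lists were chosen with earlier results of these data known. Values by library are given for the 6 G1 regulators, for members that passed between genotypes, for Mki67, Pcna, Ccnb1, Cdc20 and Mcm5, and, among members that passed from 0 to 4 h, for the 4 largest rises and 4 largest falls in each genotype; for the wider list, at most 6 genes that passed. Hmgb2, Cdk1, Ube2c, Mcm4 and Birc5 were added after their values were seen. Promoters are RefSeq's and 3' UTRs GENCODE's, both on GRCm38, which is not the build of the counts.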

Additional observations from a re-analysis of the deposited data

How the results depend on the processing

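Of 44 pairs of a member and a planned comparison that passed, 28 passed in each of 31 alternatives and none reversed. Counts of members that passed moved by over 1.5 times as follows. KO against WT at 0 h gave 1 to 2 when 1 library was left out; at 1 h it gave 1 to 2, and 1 with only the groups compared. KO against WT at 2 h gave 1 instead of 0 with DESeq2, with no filter on low counts, and without the KO 4 h libraries B and C (an alternative added after seeing the data). WT at 1 h gave 5 instead of 3 with DESeq2, and KO at 4 h gave 12 instead of 7 with library totals. The difference of the 4 h changes gave 1 instead of 0 with DESeq2 and with no filter, and 0 to 1 when 1 library was left out. The cause was not tested. The log2 ratio of replication to mitosis sums, KO minus WT at 2 h, was 0.02, but 0.45 as a mean of log2 values and 0.23 without Hmgb2. From 0 to 4 h the ratio changed by -0.25 in WT (-0.47 by either alternative) and by -0.26 in KO (-0.54 without Hmgb2); without both Pcna and Hmgb2 these were -0.14 and -0.16. A replicate block by column letter gave 4 instead of 3 at 1 h in WT and left the other planned counts as they were. Whether libraries of the same letter share an origin is not given. Their deviations from group means, over all tested genes, correlated by -0.11 to 0.11 across groups, and those of other letters by -0.12 to 0.09. Of 168 best matches of a library in another group, 51 fell on its own letter. The noise of thinly read genes enters these correlations, so they cannot exclude a shared origin. For the steps added, DESeq2 called 4 instead of 1 (WT, 1 to 2 h), 5 instead of 2 (WT, 2 to 4 h) and 2 instead of 1 (KO, 1 to 2 h); library totals gave 3 and 2 for the steps from 1 to 2 h in WT and KO. When 1 library was left out, these steps gave 1 to 3 (WT, 1 to 2 h), 1 to 4 (WT, 2 to 4 h), 1 to 2 (KO, 1 to 2 h) and 3 to 6 (KO, 2 to 4 h). Without the KO 4 h libraries B and C they gave 3, 4, 3 and 1, and with no filter 3, 2, 2 and 7. Gins2 and Cdc6 had median coefficients of variation of 88.9% and 63.6% within groups, and differences inside that spread were not detectable.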
